A study of Mus musculus with 2 samples.

Results

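The alpha and beta globin loci of the mouse were examined in chromatin accessibility maps of hematopoietic stem cells (HSCs). The members were 8 genes fixed by name: Hba-x, Hba-a1, Hba-a2 and Nprl3 on chromosome 11, and Hbb-bt, Hbb-bs, Hbb-bh1 and Hbb-y on chromosome 7. They are 8 of 21853 protein-coding genes with a coding transcript in the annotation. They were not selected by a measured value, although earlier results of these data were known when they were chosen. Around each cluster every peak was listed from 100 kb before the first to 100 kb after the last globin gene. The alpha window was chr11:32176400-32400873 and the beta window chr7:103712524-103953216 (mm10).

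The series holds 2 ATAC-seq libraries, biological replicates 1 and 2 of a single group. Each was made from 50000 primary HSCs of male adult C57BL/6J mice, 5 to 6 weeks old, with no treatment or allele named. The labels give both the same donor identifier, so separate animals are not known, and any spread between the libraries may be technical. For replicate 1 both a HiSeq and a NextSeq sequencer are listed, and for replicate 2 no instrument. In ATAC-seq a transposase cuts accessible DNA, and regions with many cuts are called as peaks. The values are peak lists, not counts, so the depth is unknown: a region without a peak was not called, which does not show that it was closed. With 1 group there was no comparison to test, and all values are descriptions.

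Hemoglobin joins alpha-like and beta-like globin chains, and erythroid cells express each cluster in developmental order, embryonic genes first. The alpha genes are controlled by erythroid enhancers that lie upstream, mostly inside introns of the neighbouring gene Nprl3, a housekeeping regulator of amino acid signalling. The beta genes depend on the locus control region (LCR), a group of hypersensitive sites upstream of Hbb-y. HSCs give rise to the erythroid lineage but do not make hemoglobin. Hypersensitive sites are named below as in the functional element annotation of RefSeq (GRCm38.p6, the same assembly), which gives most of these positions as approximate. HS numbers of the alpha cluster are approximate distances in kb in that nomenclature.

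The sequences that follow are those of the sites on which the results turn, all plus strand, with capitals marking matches on either strand to GATAA (GATA factors), TGACTCA (NF-E2 and AP-1), CACCC (Kruppel-like factors), GGAAGT (ETS factors), TGTGGT (RUNX) or AGNNGGC (core of the CTCF motif). The first 3 are from the alpha cluster and lie in Nprl3 introns. HS-38 (chr11:32238492-32238791) and Rm (chr11:32265139-32265438) are 300-base windows centred on called peaks, and the HS-26 core (chr11:32250975-32251251) is the counterpart of the human enhancer HS-40, shown because no list had a peak there.
HS-38: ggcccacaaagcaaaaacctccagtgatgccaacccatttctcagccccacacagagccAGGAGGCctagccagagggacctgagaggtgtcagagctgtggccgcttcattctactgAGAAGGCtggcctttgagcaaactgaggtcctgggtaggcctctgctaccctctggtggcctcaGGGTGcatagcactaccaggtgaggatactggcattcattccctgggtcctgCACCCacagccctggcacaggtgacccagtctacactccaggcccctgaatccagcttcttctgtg
Rm: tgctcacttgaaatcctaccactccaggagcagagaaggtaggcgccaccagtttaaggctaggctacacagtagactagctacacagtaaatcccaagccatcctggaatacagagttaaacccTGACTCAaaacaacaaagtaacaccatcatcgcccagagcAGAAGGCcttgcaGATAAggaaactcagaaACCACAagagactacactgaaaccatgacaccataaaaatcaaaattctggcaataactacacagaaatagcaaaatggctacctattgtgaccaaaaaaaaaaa
HS-26 core: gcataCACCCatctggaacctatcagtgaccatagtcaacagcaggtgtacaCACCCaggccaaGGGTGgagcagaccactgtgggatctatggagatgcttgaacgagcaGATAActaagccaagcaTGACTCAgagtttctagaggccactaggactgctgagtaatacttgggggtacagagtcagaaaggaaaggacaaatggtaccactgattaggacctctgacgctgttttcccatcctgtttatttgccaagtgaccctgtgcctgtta
The other 4 are 300-base windows centred on peaks of the beta cluster: 5'HS2 (chr7:103860983-103861282) and 5'HS4 (chr7:103870733-103871032) of the LCR, HS-3'beta2 (chr7:103808997-103809296) beyond Hbb-bt, and HS-85.5 (chr7:103942786-103943085) far upstream.
5'HS2: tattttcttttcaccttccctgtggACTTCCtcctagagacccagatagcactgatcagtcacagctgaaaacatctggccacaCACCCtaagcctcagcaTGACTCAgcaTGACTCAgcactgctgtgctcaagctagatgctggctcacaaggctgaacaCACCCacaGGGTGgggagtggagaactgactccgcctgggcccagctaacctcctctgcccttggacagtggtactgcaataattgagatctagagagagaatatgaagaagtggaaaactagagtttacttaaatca
5'HS4: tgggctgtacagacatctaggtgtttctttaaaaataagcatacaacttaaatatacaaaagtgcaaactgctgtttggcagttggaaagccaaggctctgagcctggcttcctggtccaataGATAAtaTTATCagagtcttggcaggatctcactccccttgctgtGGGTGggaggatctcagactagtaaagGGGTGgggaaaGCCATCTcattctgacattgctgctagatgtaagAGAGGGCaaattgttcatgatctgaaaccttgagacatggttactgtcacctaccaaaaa
HS-3'beta2: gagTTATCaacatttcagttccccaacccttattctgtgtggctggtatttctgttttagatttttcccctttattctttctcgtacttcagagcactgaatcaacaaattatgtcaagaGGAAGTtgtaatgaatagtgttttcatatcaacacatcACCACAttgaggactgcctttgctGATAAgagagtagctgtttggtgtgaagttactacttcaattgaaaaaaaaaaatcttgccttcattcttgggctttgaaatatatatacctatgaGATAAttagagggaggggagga
HS-85.5: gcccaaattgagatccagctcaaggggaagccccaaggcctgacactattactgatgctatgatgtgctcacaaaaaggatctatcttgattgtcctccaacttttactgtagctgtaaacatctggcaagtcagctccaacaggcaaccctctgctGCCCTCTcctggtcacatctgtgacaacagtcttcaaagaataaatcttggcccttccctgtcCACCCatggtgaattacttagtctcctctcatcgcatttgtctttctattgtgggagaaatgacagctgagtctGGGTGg

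No member had a promoter peak in the thresholded lists of both replicates. A promoter was taken as 1000 bp either side of any start of a coding transcript. All peaks in the thresholded list of a replicate had a −log10 irreproducible discovery rate (IDR, a measure of rank reproducibility within the library's own subsamples) of at least 1.30. The count was 0 of 8 members, beside 41.3% of all protein-coding promoters. In the replicate 1 list alone (46% of all promoters) it was 1 of 8, Nprl3, and in the replicate 2 list alone (44.1%) it was 0 of 8. The less strict list of each replicate, made with pseudoreplicates, added Hbb-bs: Nprl3 and Hbb-bs, 2 of 8 members, had a promoter peak in both replicates there, beside 58% of all promoters. In the less strict list of replicate 1 the count was 5 of 8 (60.2% of all promoters) and in that of replicate 2 it was 2 of 8 (61.2%). The series-level conservative list (54.7%) and the series-level thresholded list (51.9%) each had 1 of 8, again Nprl3.

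Nprl3 had the strongest promoter peak of the 8. Its signal value, the value that the authors' peak caller assigned to the peak, was 5.84 in replicate 1 and 5.17 in replicate 2. The peak lay in both less strict lists, but its −log10 IDR was 1.38 in replicate 1 and 0.91 in replicate 2, and it was in the thresholded list of replicate 1 only. The replicate 1 summit was 5 bp upstream of the first coding start. Within the replicate 1 thresholded list the signal was at percentile 7.31, so even this promoter was among the weaker peaks called. It coincided with HS-10 (chr11:32267411-32268010), which RefSeq lists as constitutive.

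The adult alpha genes Hba-a1 and Hba-a2, which encode the alpha chain of adult hemoglobin, had a promoter peak in replicate 1 only, and only in the less strict list. The signal was 5.02 at Hba-a1, with a −log10 IDR of 0.845. At Hba-a2 it was 4.92, with a −log10 IDR of 0.852. Neither gene had a promoter peak in either list of replicate 2. The embryonic alpha-like gene Hba-x had none in any of the 7 lists used.

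Among the beta-like genes, only the adult pair had any promoter peak. Hbb-bs had a less strict peak in both replicates, with signal values of 4.49 and 4.54 and −log10 IDR values of 1.02 and 0.78. The summits lay 618 and 639 bp downstream of the start, inside the gene rather than at it. Hbb-bt had a peak in the less strict list of replicate 1 alone, at a signal of 3.15. The embryonic genes Hbb-bh1 and Hbb-y had no promoter peak in any list. Neither did Hbb-bh2, the other beta-like gene of the cluster.

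**Figure D1:**
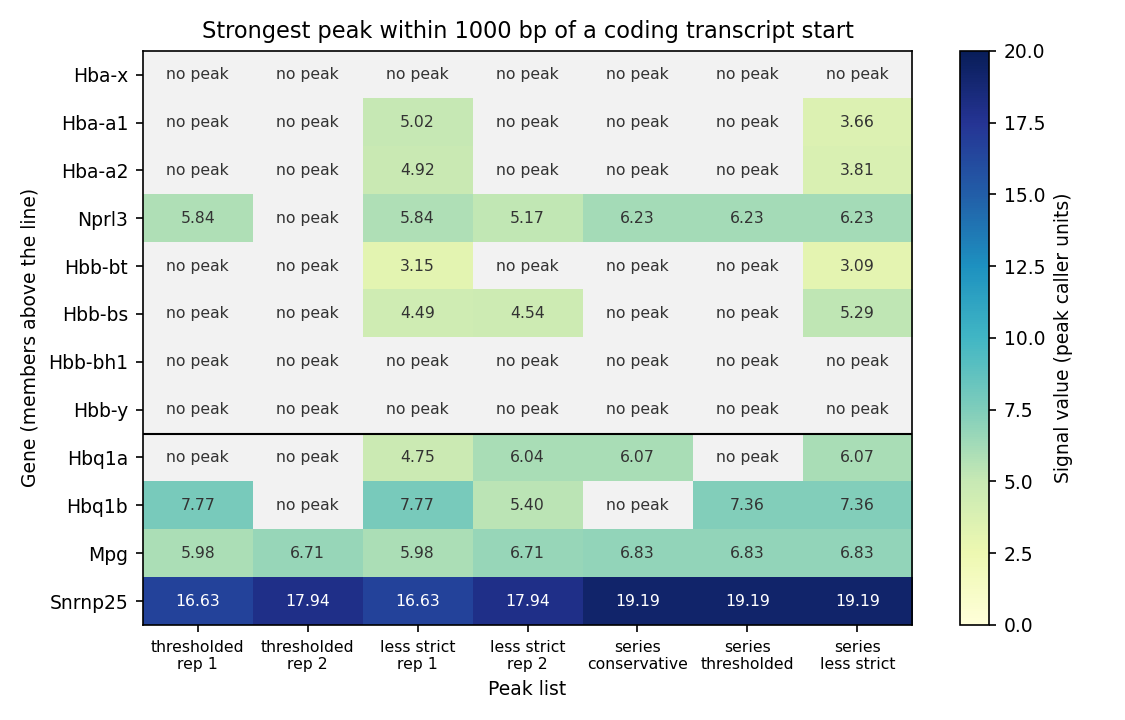
Signal value (peak caller units, colour and printed number) of the strongest peak within 1000 bp of a coding start, by gene (rows) and peak list (columns). The 8 members are above the line, with 4 other genes of the alpha window below it; Hba-x, Hbb-bh1 and Hbb-y have no peak in any list, whereas Snrnp25 reaches 16.6 and 17.9 in the replicates.

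The paired adult genes are near copies, so reads there can be hard to place. Of all 50-base words of the promoter sequence, 30.9% were unique on the assembled chromosomes for Hba-a1 and 25.4% for Hba-a2. For Hbb-bt the share was 59.2% and for Hbb-bs 66.0%. The median over a sample of 1093 promoters was 100%, with 49.0% at the 5th percentile. A 147-base stretch that ends just before the Hba-a2 start (chr11:32296342-32296488) had an exact second copy at Hba-a1 (chr11:32283525-32283671). That copy lay downstream of the annotated Hba-a1 start (position 32283511), so the annotated starts of the pair are not at corresponding bases. The sequences upstream of the RefSeq starts, as RefSeq's promoter table gives them, were 97.6% identical between Hba-a1 and Hba-a2, and 69.3% between Hbb-bt and Hbb-bs, among the 7 of 8 members with a RefSeq promoter entry.

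Within the peak regions themselves, no 50-base word was unique at Hba-a1 or Hba-a2 (0%), and 1.27% were at Hbb-bt and 33.6% at Hbb-bs. How the authors placed reads with several matches is not given in the sources used here, and its part in these values was not tested. The promoters of Hba-x (97.8%), Hbb-bh1 (100%) and Hbb-y (100%), which had no peak, were almost wholly unique.

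**Figure D2:**
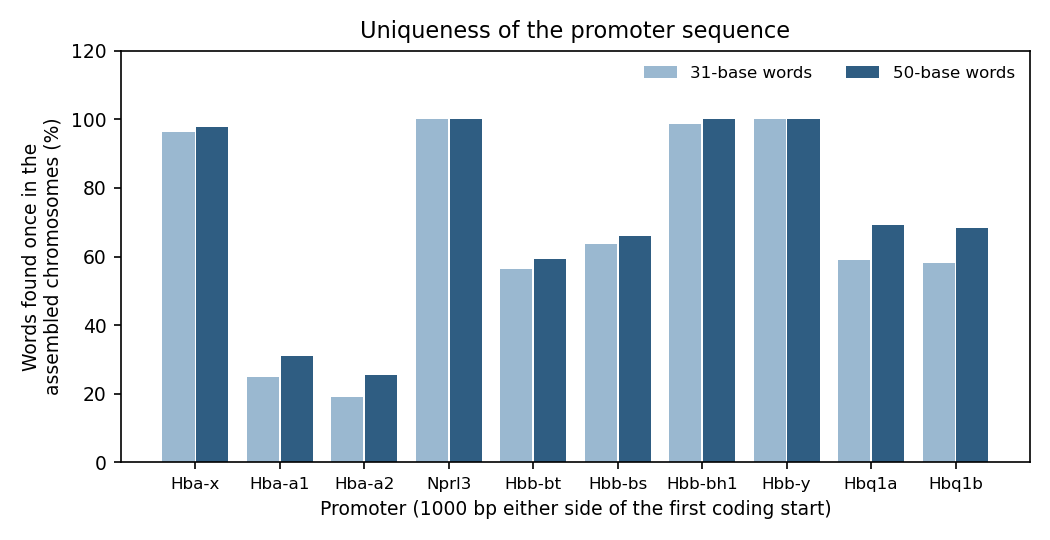
Share (%) of the 31-base and 50-base words of each promoter that occur once on the assembled chromosomes, for the 8 members and the theta globin genes Hbq1a and Hbq1b. Hba-a1 and Hba-a2 are lowest, at 30.9% and 25.4% for 50-base words, and Hba-x, Nprl3, Hbb-bh1 and Hbb-y are at 97.8% or above.

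The alpha window held more peaks per length than the beta window. It had 9 thresholded peaks in replicate 1 and 8 in replicate 2, of which 7 were shared (overlapping by at least 1 bp). That is 31.2 shared peaks per Mb, beside 10.1 for chromosome 11 and 7.24 for the genome. The beta window had 3 and 4, of which 3 were shared, or 12.5 per Mb beside 9.28 for chromosome 7. In the less strict lists 18 were shared in the alpha window and 10 in the beta window. Over the 7 lists together, the peaks merged into 26 regions in the alpha window and 17 in the beta window.

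**Figure D3:**
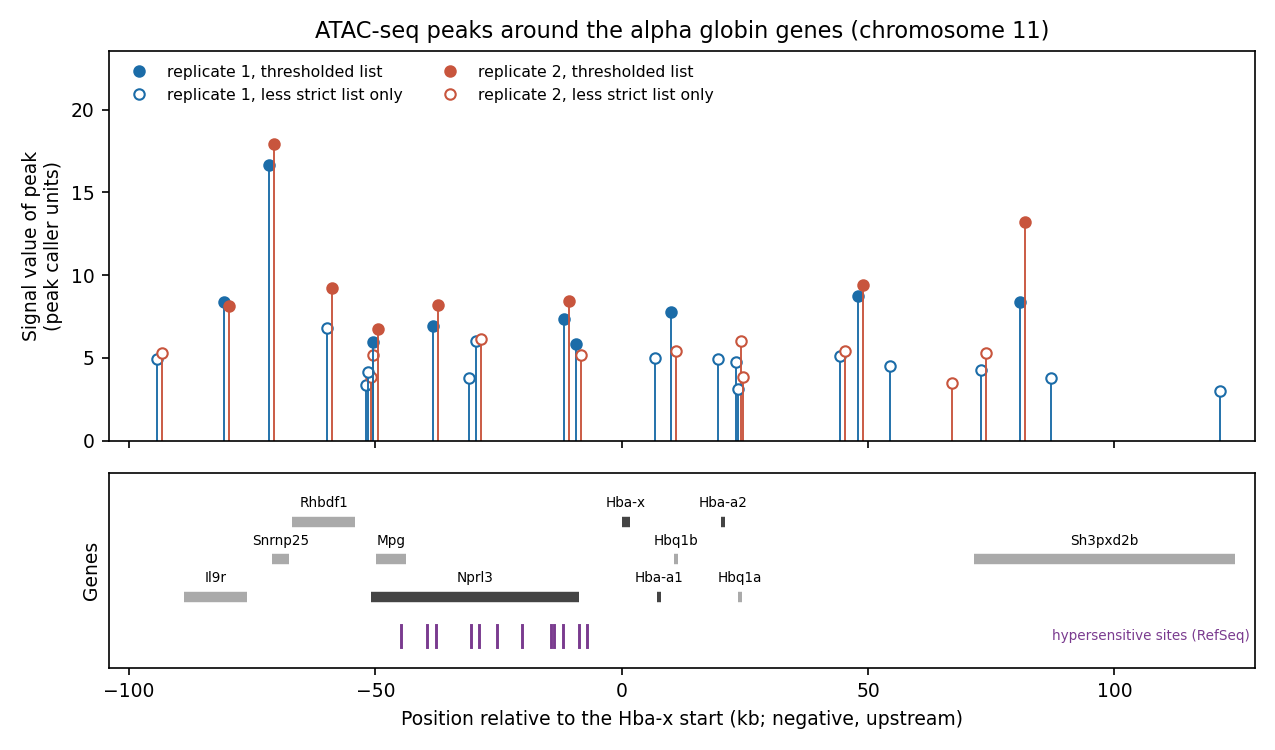
Signal value of each peak (peak caller units) against its position from the Hba-x start (kb), with replicate 1 and replicate 2 offset sideways by 0.5 kb for legibility. Filled points are in the thresholded list, open points only in the less strict list; gene bars (members dark) and ticks at the midpoints of RefSeq hypersensitive sites are below. The Snrnp25 promoter stands highest, and no point lies between the peaks 11.1 and 29.1 kb upstream of Hba-x.

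Inside Nprl3, 2 distal peaks (summits over 1000 bp from every coding start) were shared by the thresholded lists. At least 1 such peak was found in 15.7% of all genes and at least 2 in 5.19%, or in 4.65% of the 3401 genes of 30 to 60 kb, the length class of Nprl3 (42.1 kb). The first lay in intron 1 of 12 (chr11:32265134-32265475), 11.1 kb upstream of Hba-x, with signal values of 7.34 and 8.41. It overlapped the Rm enhancer fragment, which RefSeq lists from reporter assays with an alpha globin promoter. The second lay in intron 8 (chr11:32238530-32238784), 37.8 kb upstream of Hba-x, with 6.91 and 8.22. It overlapped HS-38, listed as a constitutive site, open in erythroleukemia cells and fibroblasts alike. Both were of low to middling rank, at percentiles 29.1 and 30.5 for Rm and 21.4 and 26.8 for HS-38.

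The less strict lists shared 3 distal peaks inside Nprl3, the same pair and 1 more (at least 1 in 33.4% and at least 3 in 10.1% of all genes). The added one lay in intron 6, 29.1 kb upstream of Hba-x, at HS-29, an erythroid site, with signal values of 6.00 and 6.13 and −log10 IDR values of 1.10 and 1.12. It was also in the series-level conservative list, at 6.07. The erythroid enhancer R1 at HS-31 had a peak in replicate 1 only, at a signal of 3.76.

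HS-26, a main alpha globin enhancer, had no peak. This R2 element (chr11:32250960-32251395) lay in a stretch of 17.5 kb without a peak in any of the 7 lists, chr11:32247610-32265133. The same stretch held the R3 element (HS-21), HS-15, HS-14.5 and HS-12 as annotated, the last of which ends short of the Rm peak. The R4 element (HS-8) and HS-45 had none either. All 50-base words of HS-26 and HS-21 were unique (100%), as were 98.3% of those of HS-8. The HS-26 core printed above holds 1 GATAA, 1 TGACTCA and 3 CACCC words in its 277 bases.

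By annotated class, the alpha sites divided as follows. Of 12 hypersensitive sites, 7 are listed as erythroid, 3 as constitutive and 2 as fibroblast sites. No erythroid site had a thresholded peak in either replicate, 1 had a less strict peak in both and 1 in one, and 5 had no peak in any list. These counts turn on HS-12, whose approximate position ends 341 bp short of the Rm peak: taken as 1 site with Rm, it would make 1 of the 7 thresholded in both replicates and leave 4 with no peak. Of the constitutive sites, HS-38 was thresholded in both replicates, HS-10 in one, and HS-39 had no peak. Neither fibroblast site had a peak. Over all 118 RefSeq hypersensitive sites on the assembled chromosomes, 6.78% had a peak in both thresholded lists and 20.3% in both less strict lists. These 118 include the 28 sites of the 2 windows, which supply 4 of the 8 sites with a peak in both thresholded lists.

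Beside the distal peaks of Nprl3, the alpha window held 5 further peaks that were thresholded in both replicates. The Snrnp25 promoter, of a spliceosomal protein gene, was the strongest of either window, with signal values of 16.6 and 17.9 (percentiles 99.0 and 99.2). The promoter of Mpg, a DNA repair glycosylase gene that overlaps the far end of Nprl3, had 5.98 and 6.71 (percentiles 8.56 and 7.75). An intron 1 peak of the cytokine receptor gene Il9r (chr11:32195957-32196544) had 8.37 and 8.15. An intergenic peak 48.4 kb downstream of the Hba-x start (chr11:32324695-32324966) had 8.74 and 9.40. An intron 1 peak of Sh3pxd2b (chr11:32357538-32358052), an adaptor protein gene, had 8.35 and 13.2.

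Of the 10 peaks of both windows that were thresholded in both replicates, that last one differed most between them: the ratio of replicate 2 to replicate 1 was 1.58. Over all 19727 shared thresholded peaks the median ratio was 1.09, and 1.43 was the 95th percentile. The other 9 lay between 0.974 and 1.19. A Rhbdf1 peak (chr11:32216848-32217191) was thresholded in replicate 2 only, with 9.23 there and 6.79 in the less strict list of replicate 1.

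The theta globin genes sit among the alpha genes and share sequence with each other. The Hbq1b promoter was thresholded in replicate 1 only, with signal values of 7.77 there and 5.40 in the less strict list of replicate 2, and it was absent from the conservative list. The Hbq1a promoter had less strict peaks of 4.75 and 6.04. Of the 50-base words of these peak regions, 73.4% were unique for Hbq1b and 67.3% for Hbq1a. Both genes thus had less strict peaks in both replicates, unlike the neighbouring Hba-a1 and Hba-a2.

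**Figure D4:**
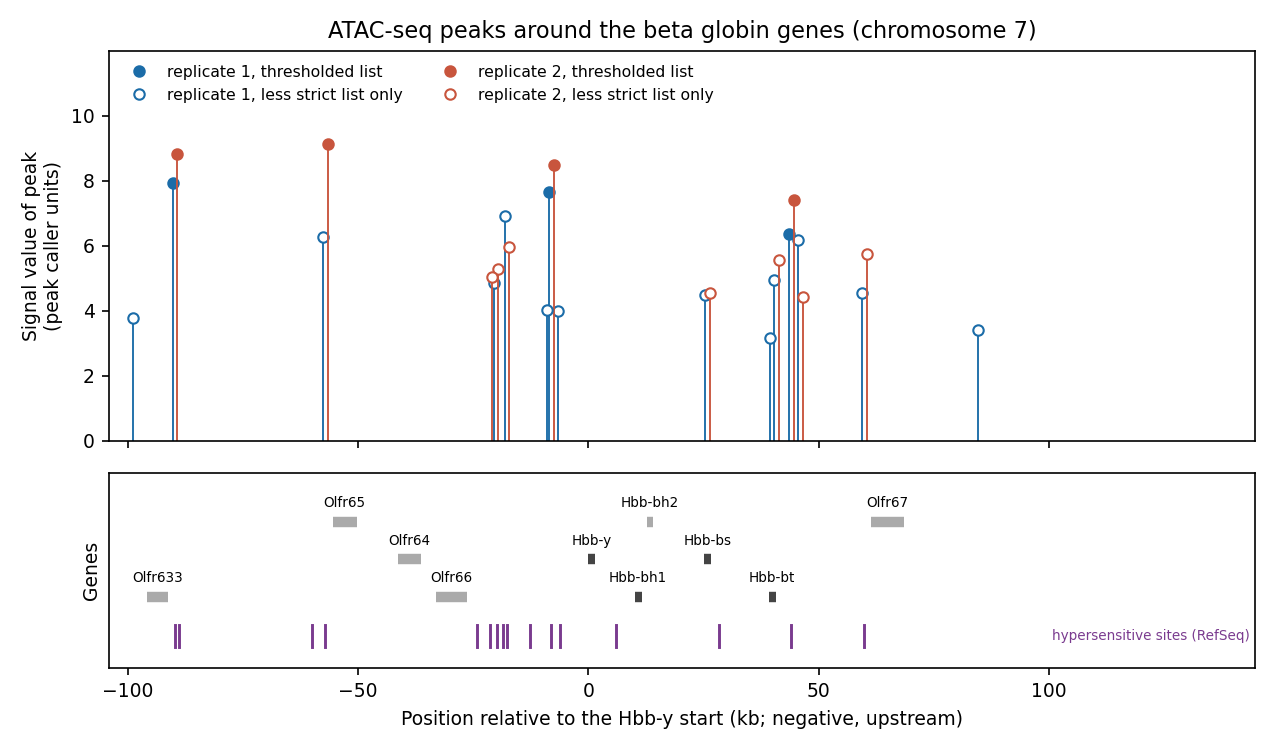
Signal value of each peak (peak caller units) against its position from the Hbb-y start (kb; negative values lie upstream, on the LCR side), drawn as for the alpha genes. The thresholded peaks at 7.92 kb upstream, 44.1 kb downstream and 89.7 kb upstream carry points from both replicates, and the stretch over Hbb-y, Hbb-bh1 and Hbb-bh2 is empty.

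In the LCR, 1 site had a thresholded peak in both replicates. It lay 7.92 kb upstream of Hbb-y (chr7:103860942-103861437) at 5'HS2, with signal values of 7.64 and 8.49, at percentiles 34.8 and 31.7. The other LCR sites were weaker. At 5'HS4 the less strict lists had 6.92 and 5.96, and at 5'HS4.2 they had 4.84 and 5.30. At 5'HS1 only replicate 1 had a peak (3.99), and at 5'HS5 only replicate 2 (5.04). No list had a peak at 5'HS3, 5'HS4.1 or 5'HS6, whose 50-base words were 93.2%, 100% and 100% unique.

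RefSeq describes 5'HS1 and 5'HS2 as observed in erythroid and multimyeloid cells, and 5'HS3 and 5'HS4 as erythroid sites absent from other hematopoietic cells. Of these 4, replicate 1 had a peak at 5'HS1, 5'HS2 and 5'HS4 and replicate 2 at 5'HS2 and 5'HS4. The site without a peak in either was 5'HS3. The conservative list held 4 peaks from 1 to 40 kb upstream of Hbb-y, at 5'HS2, 5'HS4, 5'HS4.2 and 5'HS5.

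Outside the LCR, peaks thresholded in both replicates lay on either side of the beta genes. The first lay 3.38 kb past the end of Hbb-bt (chr7:103808921-103809272), at the enhancer site HS-3'beta2, with signal values of 6.36 and 7.42. The corresponding site beyond Hbb-bs, HS-3'beta1, had no peak in any list. All its 50-base words were unique (100%), and why no peak was called there was not tested. The second lay 89.7 kb upstream of Hbb-y (chr7:103942807-103943076), at HS-85.5, with 7.94 and 8.83. The HS-60.7 peak (chr7:103909961-103910495) was thresholded in replicate 2 only, with 9.14 there and 6.27 in the less strict list of replicate 1.

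The 4 CTCF sites that RefSeq lists in the beta window all had a region in at least 1 list. CTCF is a DNA-binding protein that marks the borders of chromatin loops. At HS-85.5 the summit, position 103942936, was the first base of the CTCF site, and the AGNNGGC match in the sequence above (chr7:103942943-103942949) lay inside that site. At 5'HS5 and HS-62.5 the summits also lay inside the CTCF site, but 5'HS5 had a peak only in the less strict replicate 2 and series-level lists and HS-62.5 only in a series-level list (4.34). At 3'HS1, beyond Hbb-bt, the less strict peak of both replicates (4.54 and 5.74) covered the CTCF core, with its summit 158 bp away.

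A stretch of 31.1 kb between the peak in Hbb-bs and that at 5'HS1 had no peak in any list (chr7:103828095-103859151). It holds Hbb-bh2, Hbb-bh1 and Hbb-y, and the embryonic enhancer site HS-E1. The window's 13 olfactory receptor genes surround the beta cluster and are active in olfactory neurons. They also had no promoter peak in any thresholded or less strict replicate list (0 of 13). The shares over all promoters were 41.3% in both thresholded lists and 58% in both less strict lists.

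Of the 28 named hypersensitive sites of both windows, 4 had thresholded peaks in both replicates: HS-38, 5'HS2, HS-3'beta2 and HS-85.5. A further 2 were thresholded in one replicate, 4 were less strict in both and 3 in one, 1 had a series-level peak only, and 14 had none. Over all 118 RefSeq sites, these 28 included, 6.78% had thresholded peaks in both replicates. Of the 14 listed as erythroid alone (7 in each window), none was thresholded in either replicate and 9 had no peak in any list as annotated. With HS-12 and the Rm peak taken as 1 site, 1 was thresholded in both replicates and 8 had no peak. In the beta window, 4 sites are listed for spleen. Of these, HS-3'beta2 and HS-85.5 were thresholded in both replicates and 2 had no peak in any list. A further 3 beta sites have no cell type stated, of which 1 was thresholded in one replicate.

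The 10 regions thresholded in both replicates were searched for 7 short words in 300-base windows. GATAA was found in 4 of the 10, beside 21.8% of all 19723 shared peaks and 28.4% of the 11198 distal ones. The 5'HS2 window had no GATAA. RefSeq nevertheless lists a GATA-1 site footprinted in vivo there (chr7:103861026-103861031), which that word does not match. TGACTCA was found in 2 of the 10, Rm and 5'HS2, beside 7.28% and 10.3%. The 5'HS2 window held 2 of them, at chr7:103861084-103861090 and chr7:103861094-103861100, inside the tandem NF-E2 sites that RefSeq lists (chr7:103861084-103861102). Of the 19723 shared peaks, 100 (0.507%) held 2 or more. The Rm window held TGACTCA and GATAA together, as 355 peaks did (1.80%), and the HS-3'beta2 window held 3 GATAA words. The combinations counted were those held by the 5'HS2 and Rm windows, so their low shares do not set these sites apart. Those shares include promoter peaks and were not counted over distal peaks alone.

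For the other words the shares are given over all shared peaks and then over the distal ones. CACCC was in 7 of 10 (59.1% and 55.7%), and AGNNGGC in 7 (67.9% and 62.4%). The E-box CANNTG was in 8 (72.7% and 81.5%), GGAAGT in 3 (39.0% and 43.9%) and TGTGGT in 2 (27.5% and 38.6%). Some E-box matches overlap other words, and none is capitalised in the sequences. These are letter matches and not shown binding sites.

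The replicates gave similar values at the shared regions. Replicate 2 had the higher signal in 6 of 7 alpha and 3 of 3 beta regions, as in 72.4% of all shared peaks. By percentile within its own list it was higher in 4 of 7 and 1 of 3. The median signal of the 7 alpha regions was 8.35 in replicate 1 and 8.41 in replicate 2, beside 8.57 and 9.64 for all peaks. For the 3 beta regions the medians were 7.64 and 8.49, below those of all peaks in both replicates.

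**Figure D5:**
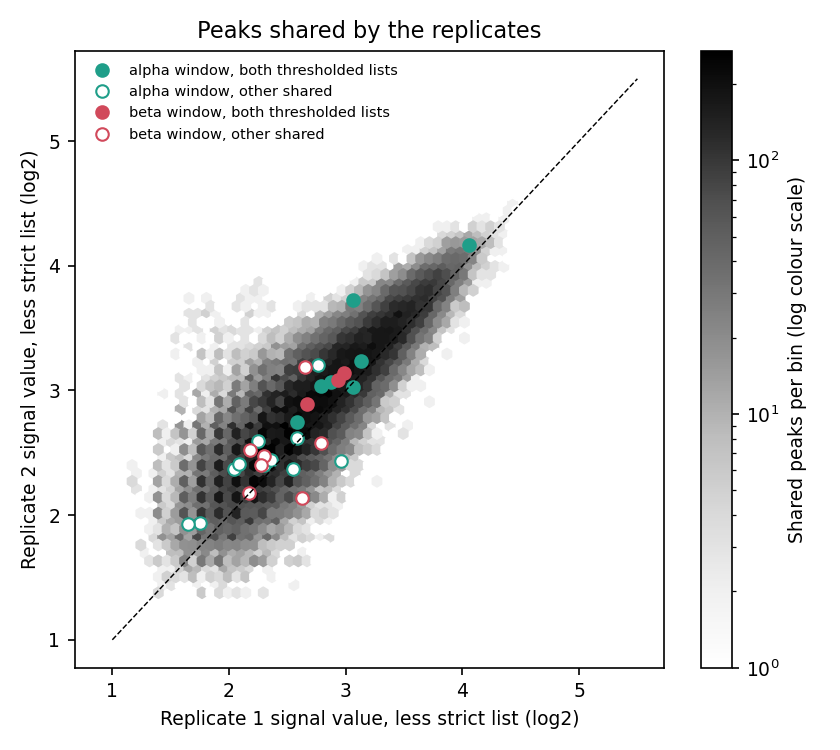
Signal value in the less strict list of replicate 2 against that of replicate 1 (both log2), with all shared peaks as grey bins and the regions of the alpha and beta windows as points, filled where thresholded in both replicates. The Snrnp25 promoter is the point at the upper right, the Sh3pxd2b intron lies farthest above the diagonal among the filled points, and most globin regions lie within the lower and middle part of the cloud.

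Counted from the first start of each gene, the alpha members had 6 to 7 shared thresholded peaks within 100 kb (Hba-a2 6, the other 3 members 7). The beta members had 2 to 3 (Hbb-bt and Hbb-bs 2, Hbb-bh1 and Hbb-y 3). The median over all genes was 3, with quartiles of 1 and 5. Members of a cluster share most of these peaks and are not independent.

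Of 20 genes for globin regulators, 11 had a promoter peak in both thresholded lists, beside 41.3% of all promoters, and 16 in both less strict lists, beside 58%. The strongest by mean percentile were Eif2ak1, the heme-regulated kinase that couples globin synthesis to heme (signal values of 12.8 and 12.5), Mbd3, a subunit of the NuRD repressor complex (11.8 and 12.8), and the deacetylase gene Hdac1 (13.04 and 11.9). The first 3 in list order without a thresholded promoter peak were Gata1, Gata2 and Myb, transcription factors of blood cells. Of these, Myb had a promoter peak in both less strict lists. Both thresholded lists had a peak inside Gata2, outside its promoter, and none inside Gata1 or Myb. A promoter peak is no measure of expression.

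The label was set beside marker promoters. Of 9 HSC marker genes, 5 had a promoter peak in both thresholded lists (Ctnnal1, Hlf, Kit, Meis1, Robo4) and 8 in both less strict lists. The shares over all promoters were 41.3% and 58%. Of 10 erythroid marker genes, 1 had one in both thresholded lists (Tfrc, the transferrin receptor), 2 in one (Epor and Klf1), and 5 in both less strict lists. The Klf1 summit in replicate 1 lay 1304 bp downstream of the start, and both thresholded lists had a peak inside that gene. The HSC count of 5 of 9 and the erythroid less strict count of 5 of 10 lie near the shares over all promoters. What part other cells in the samples had in the weak peaks of the globin loci was not tested.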

How the data were processed

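The 2 libraries were ATAC-seq of mouse HSCs, and all values come from peak lists in mm10. The aligner, the caller of the peaks and the shift for the transposase offset were not given in the sources used here. Each deposited list gives a signal value per peak, with the −log10 of a p-value, both assigned by the authors' pipeline. The deposited ranked lists also give a score, −log10 global IDR. Per the deposited notes, a replicate's lists were made from that library only, and series-level lists from the pair. The lowest −log10 IDR of any thresholded peak, looked up in the ranked lists, was 1.30 in both replicates.

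Intervals with several summits occupy several lines; only the strongest summit of each was kept, which left 25141 thresholded intervals for replicate 1 and 24495 for replicate 2. Regions are the merged peaks of 7 lists: thresholded and less strict for each replicate, and 3 series-level lists. Percentiles rank a signal within its own list. Genes were those of GENCODE M21 with a coding transcript. Hypersensitive sites were read from the RefSeq annotation, and a site had a peak where they overlapped by at least 1 bp. Words of 31 and 50 bases were counted on both strands of the assembled chromosomes. The code (Python 3.11.15, pandas 2.3.3, numpy 2.4.6) was tested on simulated data.

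The members and lists were chosen with earlier results of these data known, and the hypersensitive sites were added after the peaks were seen. Named are the members and every peak of the windows in a replicate's thresholded list. Of the window peaks found only in other lists, not all are named. Other genes named are window genes with a thresholded promoter peak, Hbq1a, Hbq1b and Hbb-bh2. Of the 20 regulators 6 are named, the 3 strongest and the first 3 without a thresholded peak. Marker genes are given as counts, with those that had a thresholded peak named, and olfactory genes as a count. Alternatives were other lists, the strongest peaks alone, single replicates, other overlaps, windows and promoter widths. The lists give no read counts, so neither the depth nor the precision it allows is known.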

Additional observations from a re-analysis of the deposited data

How the results depend on the processing

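The counts depended mainly on which peak list was read. With the less strict lists, the shared peaks numbered 18 in the alpha window, 10 in the beta window and 3 in the LCR, 2 members had a promoter peak in both replicates, and 58.0% of all promoters did. With the series-level conservative list these were 15, 9, 4, 1 and 54.7%. The series-level thresholded list gave 12 in the alpha window, 5 in the beta window, 1 member and 51.9%. With only the 50% strongest peaks of each list, 1 remained in the alpha window and 0 each in the beta window, in Nprl3 and in the LCR, with 25.6% of promoters. Either replicate alone gave 8 to 9 alpha and 3 to 4 beta peaks, 0 to 1 members and 44.1% to 46.0% of promoters. A window reaching 50 kb beyond the globin genes held 4 shared alpha peaks. Promoters of 500 bp or 2000 bp either side gave 39.97% and 42.9%, and the most 5′ start alone 38.5%. Counting starts of all transcripts, an alternative chosen after seeing the data, gave 1 member, Nprl3, through a start inside the gene. In all, 28 of 55 values stayed close to the main ones. For counts this meant within 1.5 times. For the share of promoters it meant within 1.29 percentage points, the standard deviation between the single replicates. These 28 include the alpha and beta peak counts of either replicate alone. No paired analysis was possible because the series has 1 group. Without counts the depth is unknown, and a site without a peak may have been below what these libraries could call.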

Other observations

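Several regions lay close to 1.30, the lowest −log10 IDR of the thresholded lists. The HS-29 peak in Nprl3 had −log10 IDR values of 1.10 and 1.12, just outside in both replicates, and HS-85.5 had 1.35 and 1.32, just inside in both. A peak beyond Hbb-bt (chr7:103806974-103807208) had 1.27 in replicate 1 and 0.33 in replicate 2. The series-level thresholded list held that peak at a signal of 6.17, and the conservative list did not hold it.

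The conservative list of the series was the longer of its IDR lists, with 43478 intervals beside 36033 in the thresholded one. The alpha window had 15 and 12 of them, and the beta window 9 and 5. The conservative list nevertheless lacked the Hbq1b promoter peak, which the thresholded one held at 7.36.

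The Hba-a1 and Hba-a2 promoter peaks of replicate 1 were also in the series-level less strict list, at signal values of 3.66 and 3.81. The Hbb-bs peak was there at 5.29, above its value in either replicate.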
